A study of Mus musculus with 12 samples.

Results

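The cytoplasmic ribosomal protein genes were the 87 genes, of 27998 in the single-cell libraries, whose mouse symbol begins with Rpl or Rps and a digit or is Rplp0, Rplp1, Rplp2 or Rpsa. Symbols with -ps, which mark pseudogenes, and the Rps6k kinases were left out. All 87 were also found by Entrez ID among the 40814 genes of a bulk count table. By symbol alone they divide into 34 genes called small subunit genes, 50 called large subunit genes and the 3 genes of the P stalk (Rplp0, Rplp1 and Rplp2). Of these, 77 encode the ribosomal proteins proper, and 10 are copies or other genes that carry the same kind of name: Rpl10l, Rpl22l1, Rpl36al, Rpl39l, Rpl3l, Rpl6l, Rpl7l1, Rps19bp1, Rps27l and Rps27rt.

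A cytoplasmic ribosome joins a small and a large subunit, each built of ribosomal RNA and a set of proteins that are needed in equal number, and growing and dividing cells spend much of their messenger RNA on these proteins. Most of these messenger RNAs begin with a C followed by an unbroken run of pyrimidines (C or T in DNA), the terminal oligopyrimidine tract, through which mTOR signalling and the RNA-binding protein Larp1 control their translation. Larp7, the gene deleted in this study, encodes a La-related protein that binds and stabilises 7SK, the small nuclear RNA that holds the transcription kinase P-TEFb inactive.

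The study asked what loss of Larp7 does to neurogenesis in the mouse dentate gyrus. At postnatal day 7 the dentate gyrus gave 3 single-cell libraries: P7_WT from wild-type mice, P7_L7_Nestin from Larp7f/f;nestin-Cre mice and P7_L7_Emx1 from Larp7f/f;Emx1-Cre mice. Each held the combined gyri of 3 to 4 littermates, so each genotype is 1 library and cells are not replicates. By the study's account, its wild-type controls were Larp7-floxed mice. The titles and the genotype entries of the 2 mutant libraries name opposite drivers, and the titles are followed here. The cell numbers that the study's methods give for each driver lie near the barcode counts of the libraries as titled. Bulk RNA was measured in cells from neurospheres, floating progenitor cultures, grown from dentate gyrus of postnatal day 1. The cells were dissociated, replated and, as the labels of these libraries give it, kept for 2 days in N2B27 medium with 20 ng/ml bFGF. The titles mark the libraries dif2d, and the study treats them as early differentiation (day 2), not as self-renewing cultures. They are called neurospheres below for short. There were 2 libraries of Larp7f/f cultures, called wild type, and 3 of Larp7f/f;Emx1-Cre cultures, called knockout. The nestin promoter drives Cre in neural progenitors and the Emx1 promoter in progenitors of the dorsal forebrain, and microglia and vessels arise outside these lineages. The study also reports nestin-Cre activity in other organs, such as kidney, stomach and lung. Recombination in microglia and vessel cells was not tested here. Nothing in the labels says that the neurosphere libraries came from separate animals, so p-values measure only the spread between these libraries.

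The pyrimidine run was looked for in RefSeq promoter sequences (GRCm38.p6), which were found for 66 of the 87 genes. The window covered 10 bases before the annotated start and 20 from it, on the strand of the gene. A run of at least 8 pyrimidines stood in the window of 24 of these 66 genes (36.4%), against 3517 of 27025 genes in all (13.01%). A C followed by at least 4 more pyrimidines began exactly at an annotated start in 14 of the 66 (21.2%) and in 813 of all genes (3.01%). Annotated starts can lie some bases from the start used in a cell, so the absence of a run in this window says nothing of the transcript. The 4 longest runs and 4 genes that the results below turn on are shown, with the longest run of each window in capitals:
Rpl27a (chr7:109519185-109519214, plus strand): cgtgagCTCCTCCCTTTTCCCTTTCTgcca
Rpl35 (chr2:39005112-39005141, minus strand): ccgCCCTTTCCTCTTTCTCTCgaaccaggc
Rpl15 (chr14:18270967-18270996, minus strand): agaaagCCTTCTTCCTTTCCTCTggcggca
Rpl7a (chr2:26910797-26910826, plus strand): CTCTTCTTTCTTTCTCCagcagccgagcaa
Rps26 (chr10:128626487-128626516, minus strand): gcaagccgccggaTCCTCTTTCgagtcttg
Rpl22l1 (chr3:28805498-28805527, plus strand): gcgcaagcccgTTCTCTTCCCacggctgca
Rps27 (chr3:90213629-90213658, minus strand): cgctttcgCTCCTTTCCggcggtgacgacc
Rps27rt (chr9:114982720-114982749, minus strand): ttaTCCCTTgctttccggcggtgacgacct

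The libraries held 12876 barcodes (P7_WT), 7177 (P7_L7_Nestin) and 6821 (P7_L7_Emx1), of which 10997, 6685 and 6531 passed the filter of over 500 genes and under 15% mitochondrial UMIs. A UMI stands for 1 captured messenger RNA molecule. The wild-type library was the shallower, with a median of 1782 UMIs per cell against 3644 and 3873. Pairs of libraries shared 11 to 23 barcodes. A cell was given a cell type when it held UMIs of at least 3 of the 8 markers of a type and of more markers than for any other of 13 types; 63.5%, 80.1% and 79.2% of cells were placed in this way. Of the 8 markers, 7 or 8 were present in at least 10% of the cells of each gate described for all 3 libraries. The deleted gene, Larp7, was measured in CPM (UMIs per 1000000 UMIs of the gate). In the wild-type gate of neuronal intermediate progenitor cells (nIPC) it was at 87.7 CPM. The mutant nIPC gates were at 12.0 (P7_L7_Nestin) and 16.2 (P7_L7_Emx1). In microglia Larp7 was at 55.0, 35.5 and 38.8, on only 72, 54 and 36 UMIs. These microglia values had overlapping 95% intervals, of 43.0 to 69.2, 26.7 to 46.3 and 27.2 to 53.8. All intervals below are 95% intervals that cover counting error only, and no test between genotypes is possible with 1 library each.

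Ribosomal protein messenger RNA was a large part of every cell type. Over all barcodes it took 15.9% of UMIs in P7_WT, 14.4% in P7_L7_Nestin and 14.4% in P7_L7_Emx1. Of the types with at least 50 wild-type cells, astrocytes, the glia that support synapses, stood lowest with 11.3% of UMIs (interval 11.3 to 11.4, 541 cells). Radial glia-like cells (RGL), the stem cells of the gyrus, followed at 14.99% (14.9 to 15.04, 625 cells), neuroblasts, the young postmitotic neurons, at 15.7% (15.6 to 15.7, 3823 cells) and oligodendrocyte precursor cells (OPC) at 16.2% (16.2 to 16.3, 340 cells). Among neural types the nIPC, the dividing progenitors between RGL and neuroblasts, stood highest at 18.0% (17.9 to 18.0, 841 cells). Perivascular macrophages were at 17.9% (17.7 to 18.1, 69 cells), so their interval overlapped that of the nIPC. Mural cells of the vessel wall (18.8%, 58 cells), microglia (19.3%, 465 cells) and endothelial cells (19.8%, 140 cells) stood above.

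In the nIPC the members took 18.0% of UMIs in P7_WT, 16.3% in P7_L7_Nestin (16.3 to 16.4, 469 cells) and 16.7% in P7_L7_Emx1 (16.6 to 16.7, 733 cells). Both mutant libraries were below the wild type: the difference, mutant minus wild type, was -1.63 percentage points (-1.69 to -1.57) for P7_L7_Nestin and -1.30 (-1.35 to -1.24) for P7_L7_Emx1, or 0.909 and 0.928 of the wild-type share. The 2 mutant differences share the wild-type library. All these values are shares of UMIs and not amounts per cell. UMIs per nIPC had a median of 3948 in P7_WT, 4908 in P7_L7_Nestin and 4919 in P7_L7_Emx1. The study reports more mRNA per mutant cell, most clearly in nIPC. Amounts of ribosomal protein messenger RNA per cell were not compared here, so a lower share does not mean fewer molecules per cell. The median nIPC held 17.8% of its UMIs in these genes in P7_WT, 16.4% in P7_L7_Nestin and 16.8% in P7_L7_Emx1, with quartiles of 15.7 to 19.9%, 14.5 to 18.5% and 14.9 to 18.6%, so the cells of the 3 libraries overlapped widely.

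**Figure D1:**
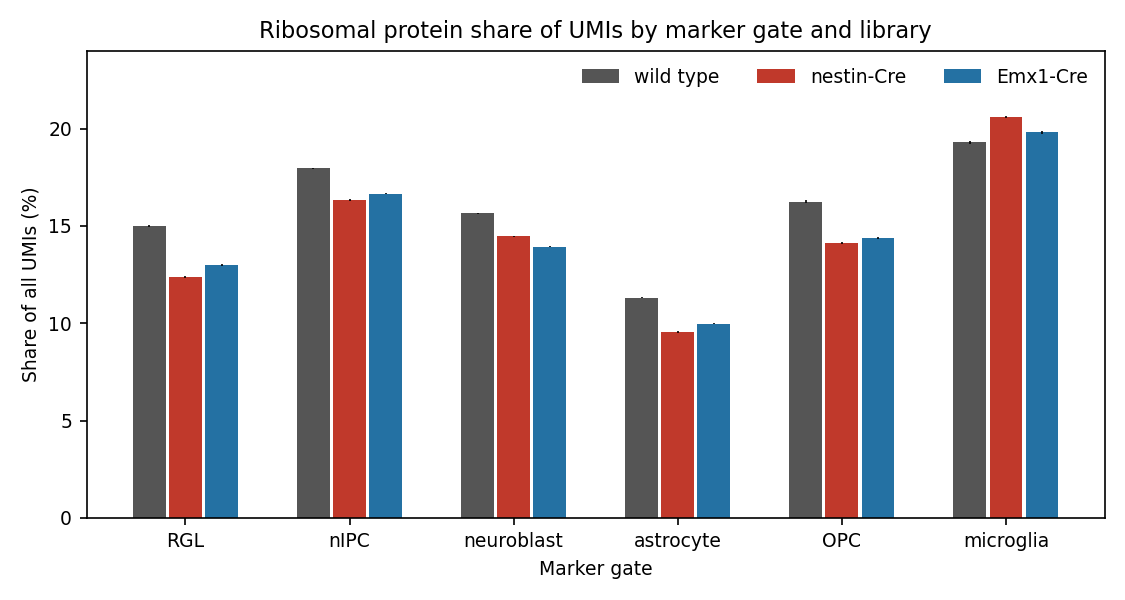
Share of all UMIs taken by the 87 ribosomal protein genes (vertical axis, percent, from 0) in each marker gate (horizontal axis) and library (colours); bars are sums over the cells of 1 library and the thin error bars are exact binomial 95% intervals. In the 5 neural gates the wild-type bar is the tallest, and in microglia it is the lowest.

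The other neural gates were also highest in P7_WT. In RGL the share was 14.99% in P7_WT, 12.4% in P7_L7_Nestin and 12.99% in P7_L7_Emx1, differences of -2.62 and -1.996 percentage points. In neuroblasts it was 15.7%, 14.5% and 13.9%, differences of -1.19 and -1.74. Neuroblasts were the only neural gate in which the P7_L7_Emx1 library lay below the P7_L7_Nestin library. In astrocytes the share was 11.3%, 9.54% and 9.98%, differences of -1.78 and -1.33. In OPC it was 16.2%, 14.1% and 14.4%, differences of -2.12 and -1.88. The OPC differences depended on the settings: they were -1.20 and -0.935 with a gate of 4 markers, -1.24 and -1.48 as a mean over cells and -0.495 and -1.32 with cells thinned to 1500 UMIs. With Leiden clusters in place of the gate the neuroblast difference of P7_L7_Nestin was -0.775. All 5 neural gates were thus lower in both mutant libraries, by more than counting error, while the spread between animals of 1 genotype could not be measured.

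In microglia, the resident immune cells of the brain, the share was 19.3% in P7_WT (19.2 to 19.4), 20.6% in P7_L7_Nestin (20.5 to 20.7, 419 cells) and 19.8% in P7_L7_Emx1 (19.7 to 19.9, 238 cells), differences of +1.29 and +0.51 percentage points. As a mean over cells these were +1.95 and +0.920, and in cells of at least 2000 UMIs +0.829 and +0.439. In endothelial cells the share was 18.2% in P7_L7_Emx1 (82 cells), a difference of -1.57, and in mural cells 17.2% (60 cells), also a difference of -1.57; the median cell went the other way, from 16.7% to 17.4% in endothelial and from 17.0% to 17.2% in mural cells. P7_L7_Nestin held 31 endothelial cells (20.2%) and 14 mural cells (16.8%), too few to describe. No other setting was run for the vessel gates. Vessel cells of P7_WT were shallower, with median UMIs of 1696 (endothelial) and 1848 (mural) against 5038 and 4164 in P7_L7_Emx1. A Leiden cluster of 116 cells, all from P7_L7_Emx1, held 8 endothelial markers and as many of another type. Whether such mixed cells entered the vessel gates was not tested. Perivascular macrophages were at 17.9% in P7_WT, 18.3% in P7_L7_Nestin (39 cells) and 18.1% in P7_L7_Emx1 (22 cells). Their mutant gates were also too small to describe. Microglia were thus higher than in the wild type, while the vessel cells gave no single direction. The difference between gates in the mutant effect was not tested.

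**Figure D2:**
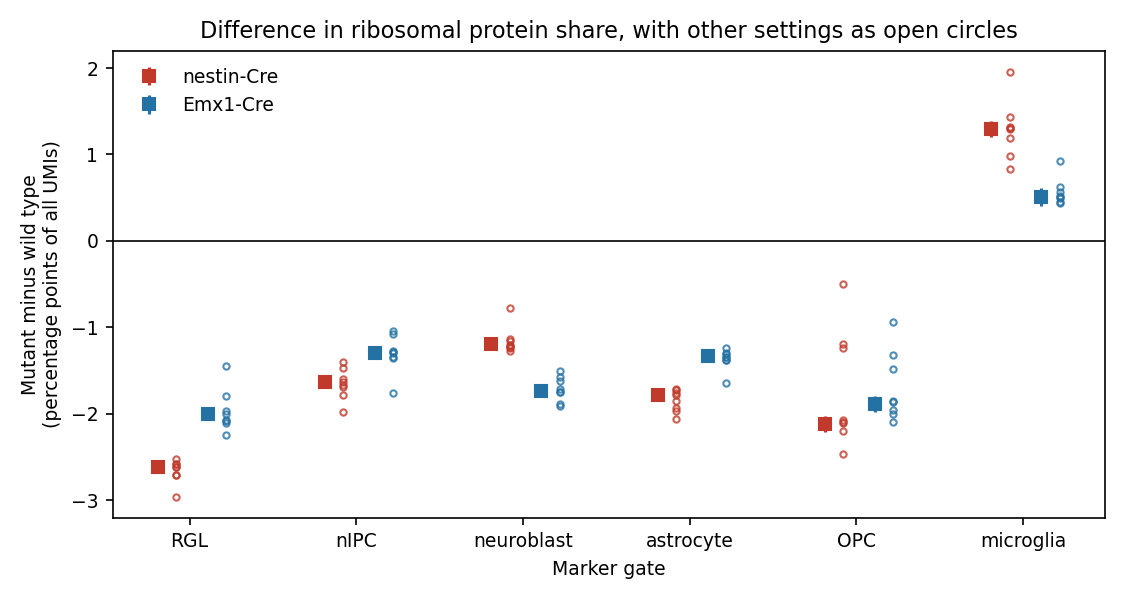
Mutant minus wild-type share of UMIs (vertical axis, percentage points) by marker gate (horizontal axis) for both mutant libraries (colours). Squares are the values given in the text with their 95% counting intervals and open circles are the 8 other settings tried for each; all neural points lie below 0 and all microglia points above it.

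Depth differed with genotype, so the shares were also taken within ranges of UMIs per cell, a choice made after the data were seen. In nIPC of 2000 to 4000 UMIs the share was 18.1% in P7_WT, 16.6% in P7_L7_Nestin and 17.1% in P7_L7_Emx1, and in nIPC of 4000 to 6000 UMIs it was 18.7%, 17.3% and 17.5%. Neuroblasts of 2000 to 4000 UMIs were at 15.5%, 14.2% and 13.8%. The direction was therefore the same at like depth in these cells. It turned in neuroblasts under 2000 UMIs, where P7_L7_Nestin was at 16.6% against 15.8% in P7_WT, and in OPC under 2000 UMIs, at 14.4% against 14.1%. In microglia under 2000 UMIs P7_L7_Nestin was at 25.4% (90 cells) against 19.3%, and in those of 4000 to 6000 UMIs P7_L7_Emx1 was at 20.6% against 20.7% in P7_WT. The barcodes with 500 genes or fewer, which the filter removed, held 13.6% of UMIs in these genes in P7_WT, 10.1% in P7_L7_Nestin and 7.07% in P7_L7_Emx1; they were also highest in P7_WT, and their part in the result was not tested.

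The lower share in neural cells was spread over nearly all of the genes. In nIPC, 83 of the 87 had at least 100 UMIs over each pair of libraries; the other 4 were Rpl10l, Rpl39l, Rpl3l and Rpl6l, of which Rpl6l held 14 to 23 UMIs a library and the others at most 1. Of the 83, 80 had a lower share of all UMIs in P7_L7_Nestin, while 47.6% of all genes with as many UMIs were lower, and 76 in P7_L7_Emx1, against 43% of all genes. The median log2 ratio of the 83 was -0.14 and -0.12, beside 0.02 and 0.05 for all genes.

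In RGL all 83 were lower in both mutant libraries, while 44.9% (P7_L7_Nestin) and 43.4% (P7_L7_Emx1) of all genes were; the medians were -0.28 and -0.21. In neuroblasts 74 of 83 were lower in P7_L7_Nestin, beside 50.1% of all genes, and 80 in P7_L7_Emx1, beside 43.4%. In astrocytes 81 of 83 were lower in each, beside 47.3% and 48.2% of all genes. In OPC 80 of 83 were lower in P7_L7_Nestin, beside 43.5%, and 79 of 82 in P7_L7_Emx1, beside 42%. Microglia went the other way: 13 of 83 were lower in P7_L7_Nestin, beside 51.4% of all genes, and 29 in P7_L7_Emx1, beside 49.8%, with medians of 0.09 and 0.03. In cells of at least 2000 UMIs, for P7_L7_Nestin and P7_L7_Emx1 in turn, 80 and 77 of 83 were lower in nIPC, beside 47.5% and 42.7% of all genes. In RGL 82 of 83 were lower in each, beside 45.5% and 43.4%. In microglia 20 of 83 and 29 of 82 were lower, beside 50.9% and 49.7%.

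**Figure D3:**
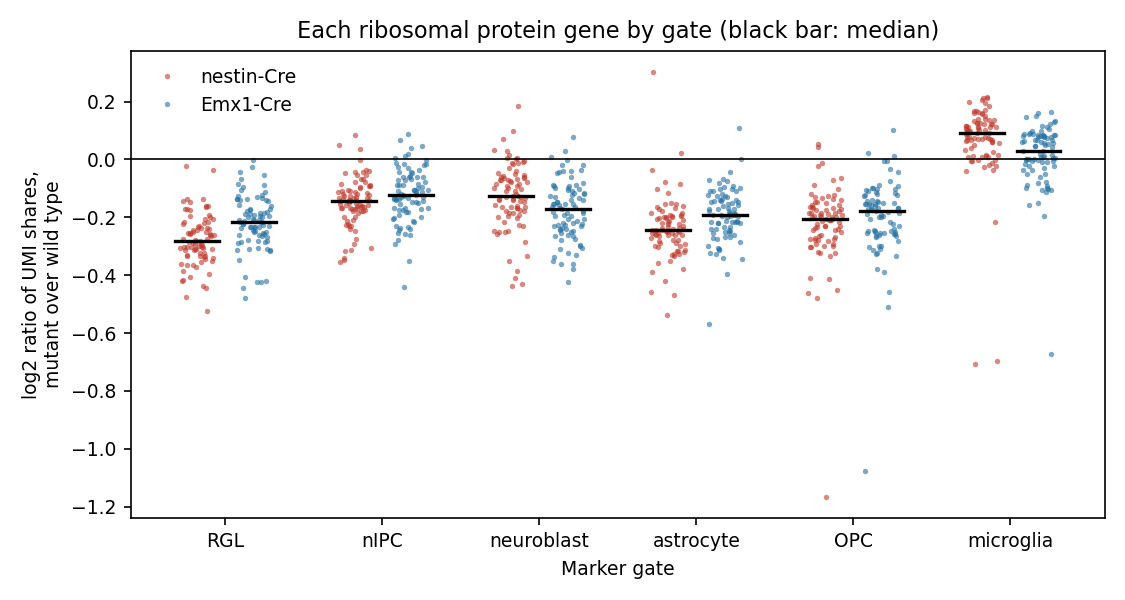
The log2 ratio of each gene's share of all UMIs, mutant over wild type (vertical axis), by marker gate (horizontal axis) and mutant library (colours); each point is 1 gene with at least 100 UMIs over both libraries of each comparison, and the black bar is the median. The median lies between -0.28 and -0.12 in the 5 neural gates and at 0.09 and 0.03 in microglia, and the lowest point of the OPC gate is Rps19bp1.

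The balance between the subunits differed little between the 3 libraries. In nIPC the small subunit genes made up 44.6% of the members' UMIs in P7_WT, 44.9% in P7_L7_Nestin and 45.1% in P7_L7_Emx1, the large subunit genes 50.2%, 50.01% and 49.7%, and the P stalk genes 5.18%, 5.09% and 5.20%. The shares of small and large subunit genes were thus lower together. The 10 copies and other genes together held 1.04%, 0.908% and 0.954% of the members' UMIs.

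Rpl41, Rplp1, Rps27a, Rpl13 and Rpsa were among the genes with the largest share of member UMIs in the wild-type nIPC. Rplp1, one of the acidic stalk proteins that recruit elongation factors, was at 3588 CPM in P7_WT, 3072 in P7_L7_Nestin and 3382 in P7_L7_Emx1. Rps27a, which is made as a fusion with ubiquitin, was at 3436, 3059 and 3190. Both genes had a lower share of UMIs in both mutant libraries. Rpl41, which encodes the smallest ribosomal peptide, was at 3681 in P7_WT, 3588 in P7_L7_Nestin and 3909 in P7_L7_Emx1, so its 2 mutant values lay on either side of the wild type. Rpl13 was at 3352, 3018 and 3107, and Rpsa, the laminin receptor protein of the small subunit, at 3317, 3139 and 3217. Each UMI is 1 molecule caught at its 3' end, so these levels are not scaled by gene length.

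Within the pool of member UMIs the parts of single genes shifted in both directions. Of the 83 genes in nIPC, 29 took a higher part of the pool in both mutant libraries and 40 a lower part in both, with ratios to the wild type from 0.860 to 1.17 in P7_L7_Nestin and from 0.793 to 1.14 in P7_L7_Emx1. Among the genes with the highest ratios in both were Rps27rt, Rps26, Rpl41 and Rps9. Rps27rt held only 157 (P7_WT), 117 (P7_L7_Nestin) and 187 (P7_L7_Emx1) UMIs, so its ratios are open to counting error. Its coding bases are also identical to those of Rps27, as given below. Rps26, a small subunit protein near the messenger RNA exit, was at 2238 CPM in P7_WT, 2373 in P7_L7_Nestin and 2303 in P7_L7_Emx1. It was thus higher in both mutant nIPC gates on the scale of all UMIs, against the run of the members. Rps9, another small subunit protein, was at 3149, 3064 and 3160, on both sides of the wild type.

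At the other end stood Rps19bp1, Rps20, Rpl36al, Rpl22l1 and Rpl26. Rps20, a small subunit protein, was at 2848 CPM in P7_WT (2793 to 2905), 2287 in P7_L7_Nestin and 2349 in P7_L7_Emx1, so it held 0.883 and 0.889 of its wild-type part of the pool. In microglia Rps20 was at 3130, 3408 and 3256, higher in both mutant libraries. Rpl26, a large subunit protein that also binds p53 messenger RNA, was at 2387, 2009 and 2027 in nIPC. Both copies were lower as well: Rpl36al, a second gene for the protein of Rpl36a, was at 499, 390.3 and 416.3, and Rpl22l1, a paralog of Rpl22, at 632, 496 and 528. Rps19bp1, which is no ribosomal protein but a binding partner of Rps19 and of Sirt1, was at 78.4 (277 UMIs), 61.8 (159) and 57.7 (235). It was also lower in microglia, at 64.1 (84 UMIs), 39.5 (60) and 39.9 (37), and had the lowest log2 ratio of the members in OPC, at -1.17 and -1.08.

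Most members took a similar part of the member pool in the wild-type cell types. The same range was not taken for other genes. Over the 9 wild-type gates with at least 50 cells, the highest gate exceeded the lowest by a median of 1.30-fold in part of the member pool, and 78 of 83 genes differed by less than 2-fold. The 5 others were Rps19bp1, Rpl38, Rps29, Rpl13 and Rpl22l1. Rpl38, a large subunit protein tied to translation of Hox genes, made up 1.77% of member UMIs in endothelial cells and 0.704% in microglia, a 2.51-fold range. Rps29 made up 3.25% in perivascular macrophages and 1.37% in RGL, 2.38-fold, and Rpl13 made up 3.61% in OPC and 1.76% in endothelial cells, 2.05-fold. Rpl22l1 was highest in astrocytes (0.445%) and lowest in microglia (0.220%). Rps19bp1 had the widest range, 3.04-fold, but its lowest value rests on 23 UMIs in endothelial cells.

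Other genes of protein synthesis were read from lists. The 77 genes of mitochondrial ribosomal proteins (Mrpl and Mrps), which serve the separate ribosomes of mitochondria, took 0.765% of nIPC UMIs in P7_WT, 0.666% in P7_L7_Nestin and 0.697% in P7_L7_Emx1; 56 of 74 and 56 of 76 with at least 100 UMIs were lower, beside the 47.6% and 43% of all genes given above. In microglia they took 0.532%, 0.450% and 0.483%, with 44 of 56 and 29 of 47 lower, beside 51.4% and 49.8% of all genes. Their share was thus lower in microglia, where that of the cytoplasmic genes was higher. Of 24 translation factors and other genes whose messenger RNAs begin with a pyrimidine run, such as Eef1a1 and Tpt1, 16 were lower in nIPC in each mutant library, and their share was 2.18%, 2.07% and 2.11%. The 36 ribosome biogenesis genes, among them Fbl and Ncl of the nucleolus, took 0.314%, 0.324% and 0.337%, with 14 of 31 and 8 of 32 lower; the first of these counts is near that of all genes (47.6%). Of 16 regulators of ribosomal protein synthesis 3 and 4 of the 13 counted were lower, and of the 7 genes of 7SK and P-TEFb, Larp7 included, 2 of the 6 counted were lower in each. The 2 small nucleolar RNA host genes in the feature list took 0.0250%, 0.0191% and 0.0254%.

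In the neurospheres Larp7 was at 42.8 and 35.0 CPM (read counts per 1000000, scaled by TMM) in the 2 wild-type libraries and at 4.17, 6.35 and 4.39 in the 3 knockout libraries (log2 difference -2.97 ± 0.21 (SE), adjusted p = 0.0198, edgeR's quasi-likelihood test with Benjamini-Hochberg adjustment). The adjusted p was 0.148 without knockout library 1, 0.195 without knockout library 3 and 0.344 with the replicate number as a block. The members took 2.49% and 2.23% of counts in the wild-type libraries and 2.51%, 2.47% and 2.55% in the knockout libraries. The means, 2.36% ± 0.18 (SD, n = 2) and 2.51% ± 0.037 (SD, n = 3), differed by +0.152 percentage points, with the groups overlapping (exact permutation test, two-sided, p = 0.40; the smallest this design allows is 0.20). Without wild-type library 2 the difference was 0.0242 and without wild-type library 1 it was 0.280. In bulk RNA, fewer cells of a type and less RNA per cell cannot be told apart.

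No member passed the test. Of the 87, 84 passed the filter on low counts; Rpl10l and Rpl39l were at 0 in all 5 libraries and Rpl3l held at most 7 counts. Of the 84, 0 were called higher and 0 lower by edgeR at an adjusted p under 0.05, while 0.0169% of 17753 genes were called higher and 0.0169% lower (3 and 3 genes). At an unadjusted p under 0.05 there were 4 members higher and 4 lower, while 10.4% of all genes were higher and 11.2% lower. DESeq2 called 2 members higher and 2 lower of the 84, while it called 4.9% of all genes with an adjusted p higher and 5.81% lower. The lowest adjusted p of a member was 0.0933. A larger share of members than of all genes had a higher value in the knockout, 60 of 84 against 50.8% of all genes, with a median log2 difference of 0.06 against 0.01. This rested on 1 library: without wild-type library 2 there were 32 of 84 and the median was -0.02. In 17 members all knockout libraries lay above both wild-type libraries and in 6 all lay below, while 21.3% of all genes did the one and 21.3% the other.

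**Figure D4:**
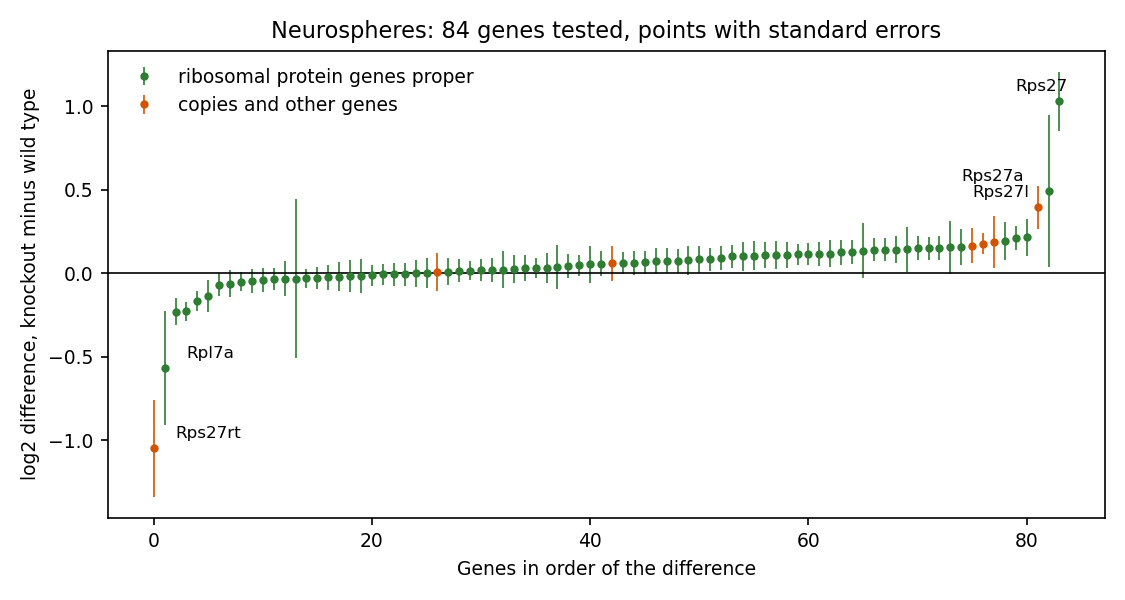
The log2 difference of CPM, knockout minus wild-type neurospheres (vertical axis), for the 84 genes tested, placed in order of that difference (horizontal axis), with standard errors from the fit; orange marks the copies and other genes. Most points lie within 0.2 of 0, and Rps27 and Rps27rt stand at the opposite ends, at 1.03 and -1.05.

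The 4 members that DESeq2 called, named here after their values were seen, were Rps27, Rps27l, Rps27rt and Rpl22. Rpl22, a large subunit protein that Rpl22l1 can replace, was at 249 and 255 CPM in the wild-type and 211, 211 and 224 in the knockout libraries, without overlap (log2 difference -0.23 ± 0.056 (SE), edgeR adjusted p = 0.118, DESeq2 adjusted p = 0.0413). Rpl22l1 was at 24.5 and 21.2 against 26.4, 24.7 and 25.8 (edgeR adjusted p = 0.388). Rps27l, a p53 target that encodes a near copy of Rps27, was at 37.2 and 30.0 against 47.0, 40.2 and 45.3 CPM (log2 difference 0.39, edgeR adjusted p = 0.162, DESeq2 adjusted p = 0.0454). None of these 3 genes passed edgeR's test.

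Of the other copies, Rpl7l1, a nucleolar relative of Rpl7, was at 122 and 113 CPM against 136, 129 and 134 (edgeR adjusted p = 0.179). Rpl6l was at 16.2 and 11.6 against 16.04, 15.6 and 15.8 (0.526 on the same scale), Rpl36al at 59.1 and 50.4 against 60.4, 52.4 and 58.4 (0.772) and Rps19bp1 at 17.2 and 16.2 against 17.9, 15.3 and 17.2 (0.975). Wild-type and knockout libraries overlapped in the last 3. Some core members varied as much within a group: Rps27a had 53.6 and 189 CPM in the wild-type libraries and Rpl7a 144, 355 and 205 CPM in the knockout libraries, and both were named for this spread after it was seen.

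Rps27 and Rps27rt had the largest differences of the members, in opposite directions. Rps27, which encodes a zinc finger protein of the small subunit, had 1434 and 1129 counts in the wild-type and 2150, 2682 and 3190 in the knockout libraries, without overlap (log2 difference 1.03 ± 0.18 (SE), edgeR adjusted p = 0.0933, DESeq2 adjusted p = 2.59e-06). Rps27rt, an intronless copy, had 2540 and 2289 against 1685, 857 and 1008, also without overlap (log2 difference -1.05 ± 0.29 (SE), edgeR adjusted p = 0.133, DESeq2 adjusted p = 0.00401). Their 255 coding bases are identical in GRCm38.p6, so a read within them belongs to both: Rps27 lies on chromosome 3 (90212667 to 90213648, minus strand) in 4 exons and Rps27rt on chromosome 9 (114982366 to 114982739, minus strand) in 1. Rps27l, on chromosome 9 (66946086 to 66949522, plus strand), differs from them at 61 of the 255 bases (76.1% identity). The first 30 coding bases are shown, with bases that differ from Rps27 in capitals:
Rps27: atgcctctcgcaaaggatctccttcatccc
Rps27rt: atgcctctcgcaaaggatctccttcatccc
Rps27l: atgccCctGgcTaGAgatctGTtAcaCccT

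Summed over the identical pair, a choice made after the data were seen, the counts were 3974 and 3418 in the wild-type and 3835, 3539 and 4198 in the knockout libraries. Per 1000000 reads, without TMM scaling, the sum was 60.6 ± 6.7 (SD, n = 2) and 63.3 ± 4.3 (SD, n = 3), with overlapping libraries (exact permutation test, two-sided, p = 0.60). The opposite differences of the 2 copies were thus absent from their sum. Rps27rt took 63.9% and 67.0% of the pair's counts in the wild-type libraries and 43.9%, 24.2% and 24.01% in the knockout libraries. In the nIPC, where reads come from the 3' end, it took 3.36% of the pair's UMIs in P7_WT (2.86 to 3.92), 3.66% in P7_L7_Nestin (3.04 to 4.37) and 3.64% in P7_L7_Emx1 (3.15 to 4.19). How reads of the identical bases were assigned or dropped was not examined, so the single values of Rps27 and Rps27rt are uncertain. Their sum does not depend on how counted reads were divided between them, but it would miss reads that were dropped.

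**Figure D5:**
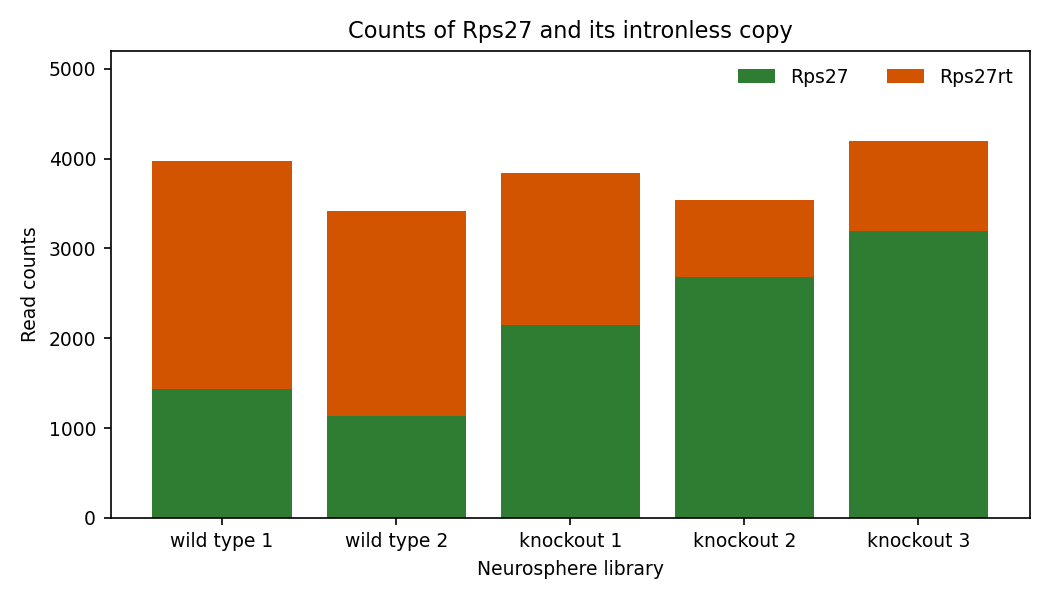
Read counts (vertical axis, from 0) of Rps27 and of its intronless copy Rps27rt, stacked, in each of the 5 neurosphere libraries (horizontal axis). The stack stands between 3418 and 4198 in all 5 libraries, while the part of Rps27rt runs from 24.01% to 67.0%.

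The lists gave no call among the neurosphere genes other than Larp7. None of 36 ribosome biogenesis genes, 24 translation factors and other oligopyrimidine genes, 78 mitochondrial ribosomal protein genes, 16 regulators or 8 small nucleolar RNA host genes passed edgeR's adjusted p of 0.05. A higher value in the knockout was seen in 32 of the 36 biogenesis genes (median log2 difference 0.17), 20 of the 24 translation genes (0.10) and 56 of the 78 mitochondrial genes (0.08), beside 50.8% of all genes. Without wild-type library 2, a setting added after the data were seen, these were 25 of 36 (0.06), 16 of 24 (0.04) and 39 of 78, beside 52.2% of all genes.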

How the data were processed

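Single-cell matrices hold raw UMI counts, deposited by the authors after Cell Ranger (4.0.0 per the file headers). The neurosphere table holds raw read counts per Entrez gene, deposited by the authors, who aligned reads with Minimap2 (Ensembl transcriptome); featureCounts and mm10 stand in the submitters' processing notes. Of its 10 columns, 5 match no sample given here and were not used. Symbols came from RefSeq (39373 of 40814 IDs). Chromatin libraries of the series were not used. Totals were 59821311 to 62474602 reads per neurosphere library and 26689878 to 28918491 UMIs per single-cell library.

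Cells with over 500 genes and under 15% mitochondrial UMIs were gated on 8 markers per type, and UMIs were summed per gate. Doublets were not removed. Ratios used 0.5 UMI as pseudocount. Shares carry exact binomial, levels exact Poisson and differences Newcombe intervals (95%). Neurosphere counts were tested with edgeR 4.0.16 (filterByExpr, TMM, quasi-likelihood, genotype only), with DESeq2 1.42.0 as an alternative. Procedures were tested on simulated data.

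Named by rule were Larp7, members called and copies (neurospheres), the 6 largest members in nIPC, the 5 highest and 5 lowest by their part of the member pool in both mutants and the 5 that varied most between types. Members, lists and tests were chosen with earlier results of these data known; Rpl6l was placed with the copies after the data were seen. No correction was made for free RNA. Some genes that these rules name, and 1 list, are not reported here.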

Additional observations from a re-analysis of the deposited data

Results flagged for a closer look

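The mutant minus wild-type share of the ribosomal protein genes in microglia was +1.29 percentage points in P7_L7_Nestin and +0.51 in P7_L7_Emx1, opposite in direction to the 5 neural gates, which ran from -2.62 to -1.19 in P7_L7_Nestin and from -1.996 to -1.30 in P7_L7_Emx1. The opposite directions are what drew attention, and the difference between microglia and neural gates was not tested, since each genotype is 1 library.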

How the results depend on the processing

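The nIPC difference kept its direction under all 8 planned settings, from -1.97 to -1.41 percentage points in P7_L7_Nestin and from -1.75 to -1.04 in P7_L7_Emx1. The values that left the counting interval were, for P7_L7_Nestin and P7_L7_Emx1 in turn, -1.97 and -1.75 with Leiden clusters in place of the gate, -1.41 and -1.08 as a mean over cells, -1.47 and -1.04 with cells thinned to 1500 UMIs, -1.78 for P7_L7_Nestin alone with a gate of 4 markers, and -1.35 for P7_L7_Emx1 alone without mitochondrial UMIs. Within 2000 to 4000 UMIs they were -1.45 and -0.985, and within 4000 to 6000 UMIs -1.48 for P7_L7_Nestin. The other 4 neural gates and microglia also kept their direction under the planned settings, with values nearest to 0 of -0.495 in the neural gates (OPC of P7_L7_Nestin, thinned) and +0.439 in microglia (P7_L7_Emx1, at least 2000 UMIs). In ranges of depth, chosen after the data were seen, the difference turned to +0.759 in neuroblasts and +0.216 in OPC under 2000 UMIs (P7_L7_Nestin) and to -0.0898 in microglia of 4000 to 6000 UMIs (P7_L7_Emx1). The cause was not tested.

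Members called in the neurospheres numbered 2 higher and 2 lower with DESeq2, and 0 to 6 higher with 1 library left out, the 6 without wild-type library 1, where the lone wild-type library is assumed to vary like the others and 5.61% of all genes were called higher; lower calls stayed at 0. DESeq2 called 726 genes higher and 860 lower of all genes, against 3 and 3. With the replicate block no gene was called (0 members), and Rps19bp1 turned to -0.011 (log2). Whether same-numbered libraries were prepared together is not known. Their deviations from the group mean correlated at 0.0611 and 0.242. These values cannot decide it, because the deviations of 2 wild-type libraries mirror each other. With 1 library left out the median of the members ran from -0.023 (without wild-type library 2) to 0.154 (without wild-type library 1), Rpl36al from -0.048 to 0.179 and Rpl6l from -0.035 to 0.452 at the same libraries, and Rps19bp1 from -0.036 (without knockout library 1) to 0.070 (without knockout library 2). RLE scaling, no filter and TMM without the members left 0 calls. The spread between animals was not measured in single cells, and the values by depth above limit what the OPC, neuroblast and microglia differences show.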
